A study of Mus musculus with 4 samples.

Results

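The genes described here are 10 receptors through which T cells are held back or pushed on: the inhibitory checkpoint receptors Pdcd1, Ctla4, Lag3, Havcr2 and Tigit, and the costimulatory receptors Cd28, Icos, Tnfrsf9, Tnfrsf4 and Tnfrsf18. They were chosen by name, and each gene was taken from 1000 bp upstream of its first transcription start site (TSS) in the mouse genome mm10 to the end of the gene. They are 10 of 55450 genes of the annotation. A CpG site qualified when at least 20 reads covered it in all 4 tumors. Of the 10 genes, 7 held a qualified site (70.0%), against 25481 of all genes (46.0%) and 16845 of 21951 protein-coding genes (76.7%).

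Methylation was read by reduced representation bisulfite sequencing (RRBS), which samples fragments with many CpG sites and counts, at each site, reads with a methylated and with an unmethylated cytosine. The DNA was that of 4 whole tumors grown from 344SQP cells, a parental mouse lung adenocarcinoma line, or from 344SQR cells, a line derived from 344SQP that resists antibodies to PD1, with 2 tumors of each. All 4 tumors grew under the skin of the leg of female 129Sv/Ev mice aged 12 to 16 weeks, and every mouse was given anti-PD1 at 10 mg/kg from day 4, in 4 doses, with the tumor taken 24 h after the last dose. The comparison asks where methylation differs between tumors of a line that resists the antibody and tumors of the line it came from. No untreated tumor and no tumor given a control antibody was measured, so every value below is from a treated tumor.

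The files held 116794455 CpG calls for parental replicate 1, 138331886 for parental replicate 2, 160548303 for resistant replicate 1 and 174689402 for resistant replicate 2. Below, values of the 4 tumors are given in this order. Coverage at the 1081201 qualified sites had a median of 98, 112, 130 and 133 reads, and their mean methylation was 31.0%, 32.7%, 29.4% and 29.1%.

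As background, a T cell is activated by its antigen receptor together with a costimulatory signal, which Cd28 gives first and Icos and the receptors of the tumor necrosis factor family extend. Activated T cells then raise inhibitory receptors that dampen the response, and T cells under long stimulation in tumors carry several of them at once. In T cells these genes are regulated in part through DNA methylation, with the promoter of Pdcd1 losing methylation upon activation, whereas cells outside the immune system mostly keep such genes silent.

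The promoters of the 10 genes hold few CpG sites. In the window from 1000 bp upstream to 500 bp downstream of the first TSS, they had between 11 CpG (Tnfrsf9) and 23 CpG (Pdcd1 and Lag3), with a median of 16, against a median of 50 over protein-coding genes. The ratio of observed to expected CpG had a median of 0.208 in the 10 genes and 0.501 in protein-coding genes. The sequence CCGG, which reads the same on both strands, was counted in each window because all 58 qualified sites of the 10 genes lay within 48 bp of a CCGG. It occurred 3 times in the promoters of Lag3 and Tnfrsf18, 2 times in those of Pdcd1, Tnfrsf9 and Icos, once in those of Ctla4, Havcr2, Tnfrsf4 and Cd28, and 0 times in that of Tigit. The median was 1.5 in the 10 genes and 5 in protein-coding genes, and 29.1% of the windows of all genes and 16.6% of those of protein-coding genes held 0. Of protein-coding promoters with 3 or more CCGG, 91.8% had a qualified site, against 27.3% with 2, 2.43% with 1 and 0.247% with 0.

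Of the 10 promoters, 1 had a qualified site (10.0%, against 62.0% of protein-coding promoters). It belongs to Tnfrsf18, which encodes the costimulatory receptor GITR of regulatory and activated T cells. The site is the cytosine at chr4:156025491 on the plus strand, upstream of the TSS (position -673 bp), in a CCGG within a repeat and inside the transcript Gm16008. It was methylated in 94.3%, 97.7%, 97.8% and 90.0% of 70, 86, 92 and 90 reads. All 4 tumors were high and the lines overlapped. The 95% Wilson intervals ran from 86.2% to 97.8%, 91.9% to 99.4%, 92.4% to 99.4% and 82.1% to 94.6%. Such intervals cover counting error only, and sites on the same reads are not independent. The parental mean was 96.0% ± 2.40 and the resistant mean 93.9% ± 5.53 (SD, n = 2 tumors each), a difference of -2.07 percentage points. The site did not pass the likelihood ratio test (FDR 0.521), so 0 of 1 promoters passed, where 38.5% of 20135 promoters did. Nor did it pass edgeR, which also weighs how far tumors of 1 line lie apart (log2 odds ratio -0.62, adjusted p 0.924), where 0.0745% of promoters did. By edgeR 0 promoters of the 10 genes passed, 0 at an unadjusted p under 0.05, and limma also gave 0. The difference was 1.85 without resistant replicate 2. The site and its surroundings are shown as the only promoter sequence of the 10 genes with enough reads in all 4 tumors, from chr4:156025484-156025498, plus strand, of the build GRCm38.p6 (RefSeq). Capitals here and in all sequences below mark qualified CpG.
Tnfrsf18 promoter site: ccacaccCGgcttca

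In the gene bodies, downstream of the promoter windows, 6 of the 10 genes had 57 qualified sites. Havcr2 and Tigit each had 2 of them, Pdcd1 3, Cd28 7, Tnfrsf9 18 and Lag3 25. By the likelihood ratio test 5 of the 6 gene bodies passed, against 65.3% of all 18683 gene bodies tested. The resistant mean was lower in 4 of the 5, Pdcd1, Havcr2, Cd28 and Tnfrsf9, and 58.1% of all gene bodies passed with a lower value. The tumors of the lines did not overlap in 5 of the 6, all but Lag3, against 54.2% of all gene bodies. With 6 genes, these counts do not set the genes apart from all others. The likelihood ratio test treats each read as its own observation and has no term for how far tumors of 1 line lie apart. By edgeR, which has one, 0 of the 6 gene bodies passed, with adjusted p between 0.324 and 0.993, against 0.00536% of all gene bodies. At an unadjusted p under 0.05 edgeR gave 0 of the 6 and limma 1, Tigit, which did not pass after adjustment. Of all gene bodies edgeR gave 3299 of 18653 at that p and limma 2931 of 18683.

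Because whole tumors were measured, a different share of cells of a type and a different methylation within those cells cannot be told apart in any value here.

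Among the inhibitory receptors, Pdcd1 encodes the receptor that the antibody given to all 4 mice blocks. Its 3 qualified sites lie in the 3′ untranslated region (UTR), in exon 5, between chr1:94039088 and chr1:94039256, 13297 to 13465 bp downstream of the TSS. Their mean methylation was 92.3%, 88.5%, 86.5% and 71.8%. Both resistant tumors were below both parental tumors, resistant replicate 2 by far the most. The line means were 90.4% ± 2.74 and 79.2% ± 10.4, a difference of -11.2 points (FDR 7.44e-09 by the likelihood ratio test), with an edgeR log2 odds ratio of -1.18 ± 0.68 (SE, adjusted p 0.395). Without resistant replicate 2 the difference was -3.85 (FDR 0.0490), and without resistant replicate 1 it was -18.6.

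A single site made up most of the Pdcd1 difference. The cytosine at chr1:94039088 on the plus strand, in a CCGG, was methylated in 87.0%, 84.3%, 70.5% and 36.7% of 100, 121, 129 and 166 reads. Both parental tumors were high, resistant replicate 1 was lower, and resistant replicate 2 was lowest. The 95% Wilson intervals ran from 79.0% to 92.2%, 76.8% to 89.7%, 62.2% to 77.7% and 29.8% to 44.3%. The difference of the line means was -32.0 points (adjusted p 1.35e-14 by the likelihood ratio test over all sites), -15.1 without resistant replicate 2 and -48.9 without resistant replicate 1. At the other sites the 4 tumors had 90.0%, 81.1%, 91.8% and 79.9% at chr1:94039251 and 100%, 100%, 97.3% and 98.8% at chr1:94039256, and neither passed. The 29 bases around the first site are shown on the strand of the gene, the minus strand, from chr1:94039074-94039102 (GRCm38.p6).
Pdcd1 3′ UTR site: gcagcaggcttccCGgtttcctattgtca

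Lag3, an inhibitory receptor that binds major histocompatibility complex class II, had the lowest mean methylation of the 6 gene bodies and the most sites. The mean over its 25 sites was 42.3%, 55.1%, 44.7% and 53.2%. The tumors split by replicate number, not by line, with both replicates numbered 1 low and both numbered 2 high. Its line means were 48.7% ± 9.08 and 49.0% ± 5.95, a difference of 0.248 points. The combined likelihood ratio test, which adds the signed z scores of the sites with equal weight, had the opposite sign (z -2.39, FDR 0.0275). The edgeR log2 odds ratio was -0.01 (adjusted p 0.993). By the likelihood ratio test Lag3 no longer passed with strands merged (FDR 0.121), at equal depth (FDR 0.877), at a minimum of 50 reads (FDR 0.0764) or without resistant replicate 1 (FDR 0.742), nor with pooled reads. With the replicate number as a block, by a Mantel-Haenszel test that compares the lines within each number, Lag3 did not pass either. Single sites moved both ways: 7 of the 25 passed, 5 lower and 2 higher in the resistant tumors. The mean difference was -6.17 without parental replicate 1, 6.67 without parental replicate 2, 4.45 without resistant replicate 1 and -3.96 without resistant replicate 2.

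The Lag3 sites fell into 3 stretches. The 19 sites between chr6:124910091 and chr6:124910376, in coding exon 3 and the start of intron 3, carried the split by replicate number, with means of 42.2%, 60.1%, 42.3% and 60.9%. The 5 sites between chr6:124904870 and chr6:124904996, in intron 6 and coding exon 7, had 44.3%, 40.4%, 56.3% and 31.4%. There the resistant tumors were the highest and the lowest of the 4. The single site at chr6:124909682, in intron 3, had 33.3%, 34.0%, 34.1% and 15.4%, low in resistant replicate 2 and alike in the other tumors.

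Within coding exon 3 the site that differed most was chr6:124910345 on the plus strand, at 77.05%, 89.6%, 53.3% and 50.0% of 61, 154, 107 and 80 reads. Both resistant tumors were below both parental tumors, by a similar amount. The difference was -31.7 points (adjusted p 1.59e-12 by the likelihood ratio test). The cytosine of the same CpG on the other strand, chr6:124910346, had 73.8%, 79.8%, 51.3% and 66.1%, again with no overlap between the lines (-18.1 points, adjusted p 0.00192). At 2 of the 5 CpG with both strands qualified, both of them in a CCGG of this stretch, the strands differed widely. At the CCGG at chr6:124910326 the plus strand had 65.6%, 96.1%, 81.3% and 94.9% and the minus strand, at chr6:124910327, 17.6%, 34.5%, 21.6% and 43.4%. In each tumor the plus strand was the higher, by 55.2 points on average. At the CCGG at chr6:124910375 it was the lower in each tumor, with 6.56%, 7.14%, 5.66% and 16.0% against 45.2%, 43.4%, 23.7% and 34.5% on the minus strand, a mean gap of 27.9 points. At the other 3 CpG, of which 1 is in Tnfrsf9, the mean gap was between 6.50 and 9.92 points. Whether the 2 wide gaps were present in the tumor DNA was not tested, and the Lag3 means include these sites. The stretch around these sites is shown because it holds 19 of the 58 qualified sites, on the minus strand of the gene, 5′ to 3′, from chr6:124910084-124910383 (GRCm38.p6). It has 31 CpG, of which 15 qualified on at least 1 strand, and 3 CCGG.
Lag3 exon 3 and start of intron 3: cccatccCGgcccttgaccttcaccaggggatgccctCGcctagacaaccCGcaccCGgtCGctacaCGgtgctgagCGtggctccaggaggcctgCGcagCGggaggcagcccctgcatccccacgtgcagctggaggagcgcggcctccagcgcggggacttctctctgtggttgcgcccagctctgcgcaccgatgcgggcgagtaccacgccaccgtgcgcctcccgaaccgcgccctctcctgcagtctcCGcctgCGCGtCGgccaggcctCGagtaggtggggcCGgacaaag

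Havcr2, the inhibitory receptor TIM-3 of exhausted T cells that myeloid cells also carry, had 2 sites on the minus strand of its 3′ UTR, in exon 7, with coverage between 26 and 66 reads. Their mean was 65.9%, 82.1%, 48.8% and 58.7%. Both parental tumors were above both resistant tumors, and parental replicate 2 was highest. The line means were 74.0% ± 11.5 and 53.7% ± 6.97, a difference of -20.2 points (FDR 1.52e-05 by the likelihood ratio test, edgeR log2 odds ratio -1.39 ± 0.82 with adjusted p 0.409). Without parental replicate 2 the difference was -12.1 and did not pass (FDR 0.154). The site with the larger difference, chr11:46480821, had 74.1%, 83.3%, 44.1% and 56.1% of 27, 48, 59 and 66 reads. Its difference was -28.6 points (adjusted p 0.00018), and without parental replicate 2 it was -24.0 (adjusted p 0.0884). It lies in a repeat and is shown on the plus strand of the gene, from chr11:46480807-46480835 (GRCm38.p6).
Havcr2 3′ UTR site: ttgggaggacagtCGtcaccaaattgatt

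Tigit, an inhibitory receptor of T and natural killer (NK) cells that binds Pvr and Nectin2, was almost fully methylated. Its 2 sites in intron 3 had a mean of 97.8%, 97.2%, 99.2% and 100%. The resistant tumors were slightly above the parental tumors. Mean values were 97.5% ± 0.427 and 99.6% ± 0.561, a difference of 2.08 points that did not pass (FDR 0.0525 by the likelihood ratio test, edgeR adjusted p 0.487). The FDR was 0.0426 without resistant replicate 1. At chr16:43657913 the 4 tumors had 100%, 94.4%, 100% and 100% of 46, 54, 63 and 62 reads, and the 2.78 points between the lines did not pass (adjusted p 0.0933). Without parental replicate 1 they were 5.56 (adjusted p 0.0329) and without parental replicate 2, the only tumor with unmethylated reads there, 0.

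Among the costimulatory receptors, Cd28, the main costimulatory receptor of naive T cells, had 7 sites in exon 4, 5 in its coding part and 2 in the 3′ UTR, between chr1:60769711 and chr1:60769812. Their mean was 96.4%, 95.05%, 94.2% and 85.9%. The first 3 tumors were alike and resistant replicate 2 was lower. The line means were 95.7% ± 0.982 and 90.1% ± 5.87, a difference of -5.66 points (FDR 2.52e-10 by the likelihood ratio test), with an edgeR log2 odds ratio of -1.21 ± 0.60 (SE, adjusted p 0.324). With the replicate number as a block the edgeR adjusted p was 0.0373, where 4221 of all 18653 gene bodies passed. The labels do not state that number to be a pairing. Without resistant replicate 2 the difference was -1.51 and did not pass (FDR 0.0902), and without resistant replicate 1 it was -9.81. All 7 sites had a lower mean in the resistant tumors and 4 of them passed. The site with the largest difference was chr1:60769809 on the minus strand, at 97.1%, 86.2%, 86.9% and 77.9%, with a difference of -9.26 points (adjusted p 0.0462). There parental replicate 2 and resistant replicate 1 were alike. Without parental replicate 1 its difference was -3.78 (adjusted p 0.521), without resistant replicate 2 it was -4.78 (adjusted p 0.637), and without parental replicate 2 it was -14.7. It did not pass at equal depth (adjusted p 0.0781) or by Fisher's exact test (adjusted p 0.0708). The coding part of the stretch is shown because all of its sites were lower in the same tumor, resistant replicate 2, on the plus strand, from chr1:60769704-60769782 (GRCm38.p6).
Cd28 exon 4: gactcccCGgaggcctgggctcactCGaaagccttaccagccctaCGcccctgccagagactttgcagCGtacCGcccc

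Tnfrsf9, the costimulatory receptor 4-1BB of activated T cells, had 18 sites in 4 stretches, all of them also inside the gene Camta1. Their mean was 71.1%, 71.8%, 70.3% and 57.1%. The first 3 tumors were alike and resistant replicate 2 stood lower. The line means were 71.4% ± 0.483 and 63.7% ± 9.38, a difference of -7.73 points (FDR 9.63e-07 by the likelihood ratio test, edgeR log2 odds ratio -0.46 ± 0.40 with adjusted p 0.572). It was -1.10 without resistant replicate 2 and did not pass (FDR 0.888), and -14.4 without resistant replicate 1. Of the 18 sites 6 passed, 5 lower and 1 higher in the resistant tumors.

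By stretch, the 4 Tnfrsf9 sites of intron 1 between chr4:150924076 and chr4:150924207 had means of 71.7%, 80.3%, 75.4% and 65.8%. The 7 sites of intron 1 between chr4:150926716 and chr4:150926858 had 81.3%, 76.5%, 77.2% and 65.8%, and the 3 sites of coding exon 5 had 62.5%, 66.7%, 64.0% and 55.0%. In these 3 stretches resistant replicate 2 was the lowest tumor, while resistant replicate 1 lay between the parental tumors. The 4 sites of intron 7 between chr4:150938368 and chr4:150938478 had 59.0%, 58.6%, 57.8% and 34.6%. There the lines did not overlap, by a small margin in resistant replicate 1 and a wide one in resistant replicate 2, and the difference was -12.6 points. The single site with the largest difference was chr4:150924076, in a CCGG, at 83.0%, 80%, 66.04% and 36.4% of 53, 50, 53 and 55 reads. Its difference was -30.3 points (adjusted p 2.18e-05), and without resistant replicate 2 it was -15.5 and did not pass (adjusted p 0.149). The intron 7 stretch is shown as the Tnfrsf9 stretch without overlap between the lines, on the plus strand, from chr4:150938361-150938485 (GRCm38.p6), with 4 of its 5 CpG qualified.
Tnfrsf9 intron 7: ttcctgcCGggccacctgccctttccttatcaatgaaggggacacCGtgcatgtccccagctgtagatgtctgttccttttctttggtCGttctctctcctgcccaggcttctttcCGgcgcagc

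**Figure D1:**
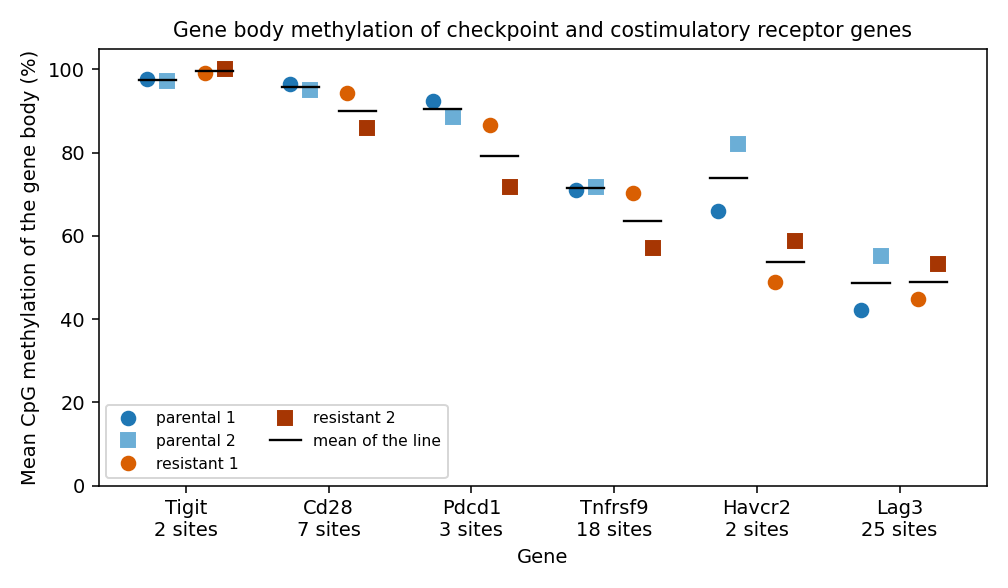
Mean methylation (percent of reads, vertical axis) of the qualified CpG sites in the gene body of each of the 6 genes, with 1 point per tumor. Resistant replicate 2 is the lowest tumor in Pdcd1 (71.8%), Cd28 (85.9%) and Tnfrsf9 (57.1%), the Lag3 tumors overlap between the lines, and the Tigit tumors all lie between 97.2% and 100%.

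**Figure D2:**
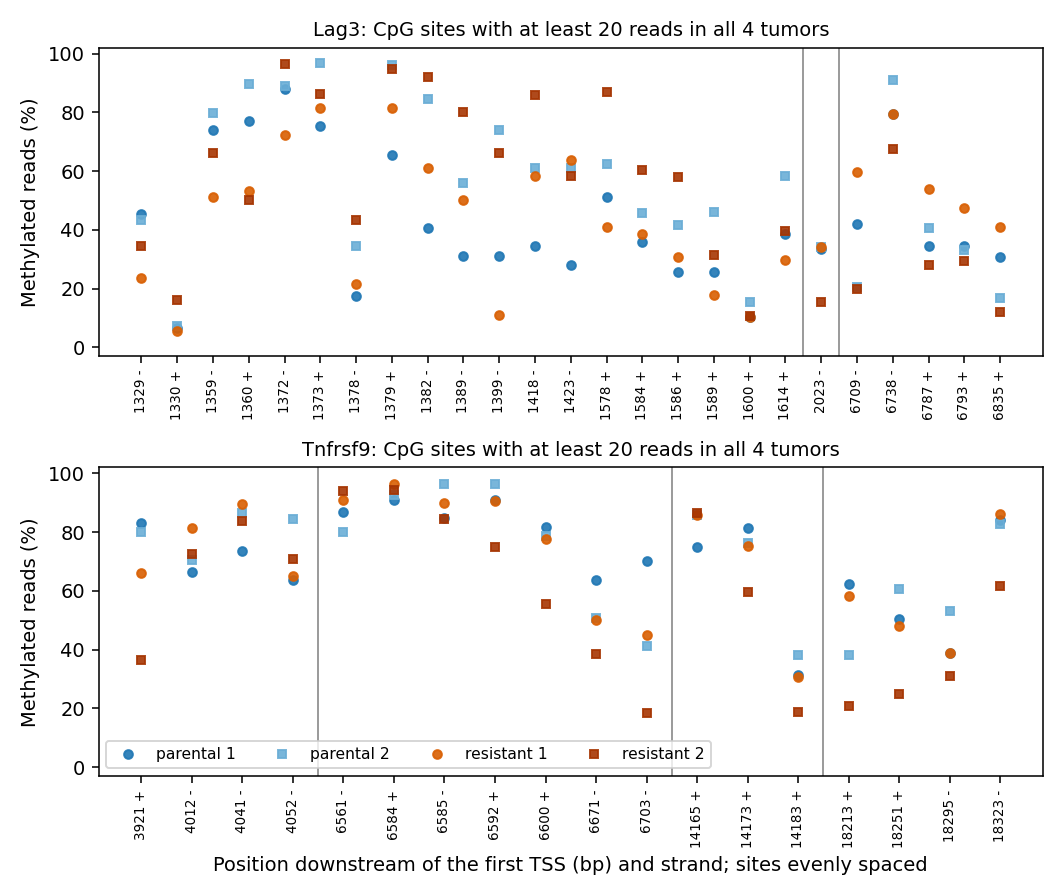
Methylation of each qualified site of Lag3 (top) and Tnfrsf9 (bottom) in percent of reads, in the order of distance from the TSS (horizontal axis, bp and strand), with 1 point per tumor and grey lines between stretches. At the Lag3 site 1360 bp downstream of the TSS both resistant tumors (53.3% and 50.0%) lie below both parental tumors, and in Tnfrsf9 resistant replicate 2 is the lowest tumor in the last stretch.

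By their mean over the 4 tumors the gene bodies ran from Tigit (98.6%) over Cd28 (92.9%), Pdcd1 (84.8%), Tnfrsf9 (67.5%) and Havcr2 (63.9%) to Lag3 (48.8%). The range of Tigit lay wholly above that of Cd28, and the range of Pdcd1 above that of Tnfrsf9. Cd28 and Pdcd1 overlapped, as did Tnfrsf9 and Havcr2, and Havcr2 and Lag3. The mean of the 6 gene bodies was 77.6%, 81.6%, 74.0% and 71.1%. Both resistant tumors were below both parental tumors, 72.5% ± 2.03 against 79.6% ± 2.81. The difference of -7.09 points had an exact permutation p of 0.33, two-sided, which is the smallest that 2 tumors against 2 can give. Over all 18683 gene bodies the means were 63.2%, 63.6%, 59.8% and 56.0%, a difference of -5.48. The median difference was -6.70 in the 6 genes and -3.12 in all gene bodies, of which 14937 were lower and 3716 higher in the resistant tumors.

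The 58 qualified sites lie in 12 stretches, and 30 of them are in coding exons, 20 in introns and 7 in 3′ UTRs. Their coverage was between 26 and 214 reads. Of the 58 sites 19 passed the likelihood ratio test (32.8%), against 24.4% of all 1081201 sites. Of the 19, 16 were lower and 3 higher in the resistant tumors, and the 3 were at Lag3 chr6:124910287 and chr6:124910316 and at Tnfrsf9 chr4:150926716. The tumors of the lines did not overlap at 22 of the 58 sites, against 29.4% of all sites. The median difference was -3.75 points. At 12 sites all 4 tumors were at 80% or above and at 2 sites all were at 20% or below. Resistant replicate 2 was the lowest tumor at 29 of the 58 sites and at 53.1% of all qualified sites of the genome. It was also the lowest at 12 of the 19 that passed, for which no share over all passing sites was counted. Without it 12 of the 58 sites passed, 7 lower and 5 higher, and 166608 of all 1081201 sites, 136328 lower and 30280 higher.

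Ctla4, the inhibitory receptor that competes with Cd28 for its ligands, Icos, a costimulatory receptor of helper T cells, and Tnfrsf4, the costimulatory receptor OX40, had no qualified site. Without a coverage minimum, the Ctla4 gene body was methylated in 87.5%, 87.5%, 86.4% and 33.8% of 16, 32, 22 and 77 CpG calls. Parental tumors and resistant replicate 1 were high and resistant replicate 2 was low. The 95% Wilson intervals were 64.0% to 96.5%, 71.9% to 95.03%, 66.7% to 95.3% and 24.2% to 44.9%. The Icos gene body had 88.9%, 100%, 82.6% and 48.4% of 9, 3, 23 and 62 calls, again lowest in resistant replicate 2. The Tnfrsf4 gene body had 100%, 100%, 83.3% and 92.0% of 4, 1, 12 and 25 calls, high in all tumors. These calls come from different sites in each tumor and were not compared by a test. Resistant replicate 2 also listed the most sites of any depth in the whole genome, 6377285, against 2770733, 2695851 and 3772295 in the other tumors.

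The promoters without qualified sites were also read at low depth. Over the 9 promoters other than that of Tnfrsf18, 62.9%, 67.9%, 62.7% and 72.6% of 35, 81, 83 and 212 CpG calls were methylated. The tumors cannot be compared on these values, since the genes and sites read differ between them: Tnfrsf9 gave 19, 31, 54 and 124 of the calls. Its promoter was methylated in 84.2%, 74.2%, 68.5% and 87.9% of them, with Wilson intervals of 62.4% to 94.5%, 56.8% to 86.3%, 55.3% to 79.3% and 81.0% to 92.5%. The resistant tumors were the lowest and the highest. The Pdcd1 promoter had 2, 9, 7 and 15 calls, of which 0, 9, 6 and 12 were methylated. The lines were not compared by a test on these few calls. Over all 20135 promoters with qualified sites the mean methylation was 22.9%, 24.5%, 21.8% and 21.6%.

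The promoter values depend on which TSS are annotated. The annotation used here starts Tnfrsf9 at chr4:150920155. With the comprehensive form of the same annotation, tried after seeing the data, Tnfrsf9 starts at chr4:150914562 and gains 37 promoter sites, which also lie in the promoter of Park7. They had 1.48%, 1.49%, 1.35% and 0.859%, low in all tumors and lowest in resistant replicate 2 (-0.380 points, FDR 0.0230 by the likelihood ratio test). Lag3 keeps its first TSS but has another at chr6:124910051, so that 20 of its 25 sites fall in a promoter, with 41.8%, 58.8%, 41.9% and 58.6% (-0.0556 points, FDR 0.00583). The first TSS of Ctla4 and Cd28 move upstream. Ctla4 gains 1 gene body site, chr1:60901180, which lies in the promoter of Rpl18-ps1, at 100%, 100%, 99.1% and 97.4% (-1.76 points, FDR 0.0300), and Cd28 gains 4, which gives it 11 sites with a difference of -6.96 points. By edgeR, with this annotation, the adjusted p was 0.846 for the Tnfrsf9 promoter, 0.999 for the Lag3 promoter, 0.405 for Ctla4 and 0.396 for Cd28.

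The tumors hold cells of the host, and the promoters of T cell markers were read in the same way. Of 15 T cell markers 6 had promoter sites and 4 of them fell in the resistant tumors by the likelihood ratio test (Cd2, Cd8b1, Cd3e and Cd6), against 38.5% of all promoters passing in either direction. The median difference was -10.9 points. The defining markers Cd4, Cd8a and Cd3d were among the 9 without such sites. The mean of the 6 promoters was 74.5%, 79.1%, 71.4% and 56.5%, lowest in resistant replicate 2. That tumor was the lowest in Cd2, Cd8b1 and Cd3e, with 1 or 2 sites each, but not in Lat (15 sites), Cd6 (7 sites) or Zap70 (6 sites). Cd8b1, a chain of the coreceptor of cytotoxic T cells, had 58.3%, 68.0%, 52.4% and 26.3% over 2 sites, and Cd2, an adhesion receptor, had 85.1%, 81.4%, 69.2% and 38.8% at 1 site. They were singled out after their values were seen. Without resistant replicate 2 neither passed (-10.7 points, FDR 0.0642, for Cd8b1 and -14.0, FDR 0.0962, for Cd2), and without resistant replicate 1 they differed by -36.9 and -44.5. At a minimum of 10 reads Cd2 differed by -15.1. Cd6, a receptor of T cells, had 66.7%, 75.9%, 63.8% and 64.1% over 7 sites, a difference of -7.33 points (FDR 9.99e-05 by the likelihood ratio test, edgeR adjusted p 0.871), and it was -2.70 without parental replicate 2 (FDR 0.646) and -12.0 without parental replicate 1. Without resistant replicate 2, 2 of the 6 promoters passed. At a minimum of 50 reads 3 of 4 T cell promoters passed, 2 lower and 1 higher, against 7125 of all 18786 promoters. In the gene bodies 8 of 12 T cell markers passed (against 65.3% of all gene bodies), 7 lower and 1 higher, with a median of -6.33 points. Cd4, the coreceptor of helper T cells, had 79.2%, 77.6%, 72.0% and 53.8% over 10 gene body sites and was also singled out after its values were seen. Its difference was -15.5 points, -6.42 without resistant replicate 2 and -24.6 without resistant replicate 1. The part of T cell number in the values of the 10 genes was not tested.

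Markers of other cells were read too. Of 7 myeloid markers 2 had promoter sites, and Adgre1, a macrophage receptor singled out after its values were seen, fell (65.9%, 78.3%, 36.2% and 9.23% at 1 site). Its difference was -49.4 points, and -17.5 at a minimum of 10 reads. All 4 myeloid gene bodies with sites fell, where 58.1% of all gene bodies did, with a mean of 74.3%, 78.5%, 66.1% and 59.1%. Both resistant tumors were below both parental tumors, as they were in the mean of all gene bodies. Of 4 NK cell markers 0 had a qualified site. Of 4 genes of all leukocytes 2 had promoter sites, with means of 15.3%, 24.3%, 10.6% and 18.2%, and 1, Vav1, fell. In both lists 1 of 2 promoters thus passed, where 38.5% of all promoters did. In their gene bodies 3 of 4 passed (against 65.3% of all gene bodies), 2 lower and 1 higher. The 1 that rose was Ptprc, the phosphatase CD45 of all leukocytes, at 39.9%, 31.9%, 56.3% and 60.8% over 6 sites, a gene singled out after its values were seen. The lines did not overlap, and the difference was 22.7 points (FDR 5.25e-24 by the likelihood ratio test, edgeR adjusted p 0.194), and 13.8 at a minimum of 10 reads. With a tumor left out, between 6566 and 8488 of all 20135 promoters passed, and between 9559 and 12678 of all 18683 gene bodies. Of the lists, 2 myeloid promoters passed without parental replicate 1 or resistant replicate 2, both lower, and 2 without resistant replicate 1, 1 lower and 1 higher. Of the leukocyte promoters 2 passed without parental replicate 1 or resistant replicate 2, both lower, and 2 without parental replicate 2 or resistant replicate 1 or at a minimum of 50 reads, 1 lower and 1 higher. The part of these cells was not tested.

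Of 5 endothelial markers 3 had promoter sites, of which 1 fell (Tie1) and 1 rose (Kdr), and of 6 fibroblast markers 4 had promoter sites, of which 1 fell (Col1a2) and 1 rose (Pdgfra). All 5 gene bodies with sites fell in each of the lists, where 58.1% of all gene bodies did. Of 8 epithelial markers 7 had promoter sites with means of 13.6%, 12.2%, 12.7% and 9.64%, low in all tumors, and 3 fell (Cldn4, Krt18 and Krt19). Of all promoters 38.5% passed. In the gene bodies 7 of 8 fell. With so few genes a list, these counts do not set the lists apart from all other genes. With a tumor left out, 1 endothelial promoter passed without parental replicate 2 or resistant replicate 1, higher each time, and 2 without resistant replicate 2, both lower. For the fibroblast list 1 promoter passed without parental replicate 1 or resistant replicate 2 or with the first TSS only, lower each time, and 1 without parental replicate 2 or at equal depth, higher. Of the epithelial promoters 1 passed without parental replicate 1 or resistant replicate 2, lower each time, and 5 without parental replicate 2 or at a minimum of 50 reads, 4 lower and 1 higher. By edgeR 0 of 26 promoters and 0 of 41 gene bodies of these marker lists and a B cell list passed, and limma called 0 of all genes. At an unadjusted p under 0.05 edgeR gave 1 and 8 of them, against 1769 of all 20124 promoters and 3299 of all 18653 gene bodies.

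Other receptors of the same kinds were described by a list of 18 inhibitory and costimulatory receptors. Of these 9 had promoter sites and 4 passed the likelihood ratio test (against 38.5% of all promoters), 3 lower (Tnfrsf8, Cd48 and Entpd1) and 1 higher (Vsir), with a median difference of -1.02 points against -0.233 over all promoters. The balance changed with the tumor left out: 5 lower and 0 higher without parental replicate 1, 3 and 3 without parental replicate 2, 2 and 3 without resistant replicate 1, and 5 and 1 without resistant replicate 2. Tnfrsf8, the receptor CD30 of activated lymphocytes, had 19.996%, 31.7%, 14.3% and 17.8% over 12 sites. Both resistant tumors were below both parental tumors. The lines differed by -9.79 points (FDR 1.27e-17, edgeR adjusted p 0.666), by -3.93 without parental replicate 2 and by -15.6 without parental replicate 1. Entpd1, an enzyme that degrades extracellular ATP, had 11.8%, 11.1%, 9.06% and 9.44% over 25 sites, a difference of -2.17 points (FDR 0.0262, edgeR adjusted p 0.904). It did not pass in 7 alternatives: at a minimum of 10 reads (-0.802, FDR 0.166) or 50 reads (-1.02, FDR 0.184), with the first TSS only (-0.846, FDR 0.159), with pooled reads (-0.686, FDR 0.226), at equal depth (-1.91, FDR 0.0888), without parental replicate 1 (-1.81, FDR 0.712) and without resistant replicate 1 (-1.98, FDR 0.0879). In the gene bodies 10 of 11 fell, against 58.1% of all gene bodies, with a median of -8.14 points, and 6 did without parental replicate 2.

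Of 13 ligands of the 10 receptors 5 had promoter sites, all with low methylation, with means of 2.29%, 1.29%, 2.16% and 2.49%. Of these 1 passed, where 38.5% of all promoters did. It was Tnfsf9, the ligand of Tnfrsf9, at 0.325%, 0.861%, 1.40% and 2.11% over 11 sites. Both resistant tumors were above both parental tumors, by 1.16 points (FDR 0.0498, edgeR adjusted p 0.597). It did not pass at a minimum of 50 reads (FDR 0.0504), with strands merged (FDR 0.0551), with the first TSS only (FDR 0.0509), without parental replicate 1 (0.897, FDR 0.150) or without resistant replicate 2 (0.809, FDR 0.408). Cd274, which encodes the ligand PD-L1 of Pdcd1, had 5.90%, 0.391%, 3.79% and 4.38% over 2 sites and did not pass (FDR 0.456), though it did without parental replicate 1 (3.69, FDR 0.00213) and differed by -1.82 without parental replicate 2. It was singled out after its values were seen. Without parental replicate 1, 2 of the 5 ligand promoters passed, both higher, and 0 without resistant replicate 2. In the gene bodies 3 of 10 ligands fell, against 58.1% of all gene bodies, with a median of -3.86 points. Without parental replicate 1, 6 passed, 4 lower and 2 higher, and without resistant replicate 2, 5 passed, 4 lower and 1 higher.

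Of 10 transcription factors that act on these genes in T cells 9 had promoter sites and 6 passed (against 38.5% of all promoters), 4 lower and 2 higher, with a median difference of -0.208 points. Without parental replicate 2 there were 3 lower and 4 higher, and with pooled reads 4 of each. Tox, a regulator of T cell exhaustion, had 7.47%, 10.8%, 5.20% and 5.34% over 36 sites, a difference of -3.86 points (FDR 2.28e-30, edgeR adjusted p 0.415). Eomes, a factor of effector and memory T cells, had 9.86%, 12.9%, 4.27% and 5.67% over 25 sites, a difference of -6.42 points (FDR 6.07e-38, edgeR adjusted p 0.463). Tcf7, a factor of naive and stem-like T cells, had 10.9%, 12.4%, 10.3% and 10.3% over 104 sites, a difference of -1.33 points (FDR 2.43e-09, edgeR adjusted p 0.640). In all 3 promoters both resistant tumors were below both parental tumors, by similar amounts in the resistant replicates. Without parental replicate 2 the differences were -2.21 for Tox, -4.89 for Eomes and -0.615 for Tcf7, and without parental replicate 1 that of Tcf7 was -2.05. Tcf7 also differed by -0.693 with strands merged and by -2.63 with pooled reads.

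The promoters of the list that rose were Nfatc2, a factor of the calcium signal of the T cell receptor, and Tbx21, a factor of type 1 helper T cells, both singled out after their values were seen. Nfatc2 had 9.88%, 15.0%, 14.4% and 23.1% over 82 sites, a difference of 6.29 points (FDR 1.20e-40, edgeR adjusted p 0.688). It was highest in resistant replicate 2, and the lines overlapped. Without that tumor the difference was 1.94 and did not pass (FDR 0.863). It was 10.6 without resistant replicate 1, 3.73 without parental replicate 1 and 14.1 with the first TSS only. Tbx21 had 6.52%, 11.8%, 11.7% and 14.3% over 13 sites, a difference of 3.87 points (FDR 1.11e-07, edgeR adjusted p 0.762), again with overlap. It did not pass without parental replicate 1 (1.24, FDR 0.0786), and was 6.50 without parental replicate 2. In the gene bodies 6 of 9 factors passed (against 65.3% of all gene bodies), 5 lower and 1 higher, with a median of -1.75 points. The 1 that rose, singled out in the same way, was Eomes, whose promoter fell. Its gene body had 16.6%, 24.4%, 23.4% and 40.1% over 103 sites, highest in resistant replicate 2 and with overlap between the lines. The difference was 11.2 points (FDR 1.22e-156, edgeR adjusted p 0.334), 2.92 without resistant replicate 2, 19.6 without resistant replicate 1 and 7.35 without parental replicate 1. By edgeR 0 of the 23 promoters and 0 of the 30 gene bodies of the lists of receptors, ligands and factors passed, and limma called 0. At an unadjusted p under 0.05 edgeR gave 2 and 5 of them, against 1769 of all 20124 promoters and 3299 of all 18653 gene bodies.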

How the data were processed

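RRBS was measured in 4 tumors. The authors trimmed reads with Trim Galore 0.4.1 and cutadapt 1.9.1, mapped them to mm10 with Bismark and Bowtie 1.1.2, and deposited, per tumor and CpG strand, the coverage as a count. The deposited tables also give the methylated percent of that coverage. Methylated reads were taken as coverage times percent, rounded. The coverage minimum was 20 in every tumor. At 20 reads, 1 read is worth 5.0 percentage points.

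Genes and TSS came from the GENCODE vM21 basic annotation. Promoters joined the windows from 1000 bp upstream to 500 bp downstream of all TSS of a gene, and the gene body was the rest. A percent is the mean over sites. Sites were tested as in methylKit, by logistic regression on the line and a likelihood ratio, with p not below 2.2e-16. Sites were combined by signed Stouffer z scores, and p was adjusted over all promoters, gene bodies or sites by Benjamini-Hochberg (passed: under 0.05). An exact permutation test, two-sided, compared single values per tumor. Reads were summed per region for the quasi-likelihood test of edgeR, and limma was run on log2 ratios after 1 read was added.

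Sites were named as the largest difference per gene. List genes were named by at least 5 promoter sites, FDR under 0.05 and no overlap, at most 3 per list. Other genes and sites named from small counts were chosen after their values were seen. A rule for the promoters most like a member's found none, since no member promoter had 5 sites. Members and lists were chosen with earlier results of these data known. Cd5 and Foxp3 are each in both the T cell list and another list. Alternatives were coverage of at least 10 or 50 reads, merged strands, the first TSS only, equal depth, each tumor left out, pooled reads, Fisher's exact test per site and a replicate block. With the block, sites were tested by a Mantel-Haenszel test, which compares the lines within each replicate number, in place of the likelihood ratio. R 4.3.3, edgeR 4.0.16, limma 3.58.1, Python 3.11.15, numpy 2.4.6, scipy 1.17.1, pandas 2.3.3, statsmodels 0.14.6, numba 0.67.0 and matplotlib 3.10.9 were used.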

Additional observations from a re-analysis of the deposited data

How the results depend on the processing

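Pdcd1 passed the likelihood ratio test under all 10 alternatives (-18.6 to -3.85 points). At a minimum of 50 reads only 4 of the 6 gene bodies could be tested, and 11070 of all 16906 gene bodies passed. Of 6 gene bodies, 3 passed at a minimum of 50 reads, where Havcr2 and Tigit had no site, and 3 to 5 with a tumor left out, with 3 without resistant replicate 2. Of 58 sites, 11 passed at equal depth and 12 to 25 with a tumor left out. The Tnfrsf18 promoter, the only one with a site, differed by -5.98 to 1.85 points with a tumor left out. With the comprehensive annotation, chosen after seeing the data, 2 of 3 promoters passed (Lag3 and Tnfrsf9), against 8582 of all 20812. The Lag3 mean difference was -0.347 at 10 reads, -0.894 at 50 reads and -6.17 to 6.67 with a tumor left out. The Cd274 promoter differed by -1.82 to 3.69 with a tumor left out. The causes were not tested.

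The replicate number was used as a block, which the labels do not state to be a pairing. With it the Mantel-Haenszel test per site, combined by the same z scores, passed 4 of the 6 gene bodies, all lower, without Lag3. Of all 18683 gene bodies it passed 12050, of which 10731 were lower. With the block edgeR called 1, Cd28 (adjusted p 0.0373), and 4221 of all 18653 gene bodies and 2444 of all 20124 promoters. The mean of the gene bodies differed by -7.09 points with the block and by -9.08 to -5.10 over all alternatives. Across promoters, the deviations of the numbered replicates correlated between the lines with r 0.663 (n = 20135). Across gene bodies r was 0.604 (n = 18683). In regions with at least 5 sites r was 0.811 for promoters (n = 16692) and 0.741 for gene bodies (n = 13377). These regions are not independent. Ctla4, Icos and Tnfrsf4 had no qualified site.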
